A study of Rattus norvegicus with 6 samples.

Results

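The genes described here encode the nuclear subunits of the mitochondrial respiratory chain and of the ATP synthase, with a few assembly factors and associated proteins that carry the same family names. Members were the probe sets whose platform annotation gave exactly 1 gene symbol beginning with Nduf, Sdha to Sdhd, Uqcr, Cox4 to Cox8, Cyc1, Cycs or Atp5. The rule found 102 of 31099 probe sets, which stand for 91 of the 14217 genes with a symbol of their own on the array. By role, 34 genes belong to complex I, 4 to complex II, 8 to complex III, 17 to complex IV and 15 to complex V, while 10 are assembly factors and 3 are associated genes.

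The respiratory chain passes electrons from NADH and succinate to oxygen and pumps protons across the inner mitochondrial membrane as it does so. Complex I takes electrons from NADH, complex II takes them from succinate, complex III hands them to cytochrome c, and complex IV, cytochrome c oxidase, reduces oxygen to water. Complex V, the ATP synthase, lets the protons back and makes ATP, which neurons spend largely on ion pumping and synaptic transmission.

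The study asked which genes respond to Math2, also called Neurod6, a basic helix-loop-helix transcription factor of cortical neurons. Cultured rat cortical cells of unstated strain and age received either a control vector (3 arrays) or a Math2 expression vector (3 arrays). Each dish in both groups took 13.3 µg of that vector together with 2.7 µg of a vector for a truncated LNGFR, a surface receptor that served as a tag. After 24 h the tagged cells were pulled out magnetically, and 50 ng of total RNA per sample went through 2 rounds of amplification onto Affymetrix expression arrays. Both groups therefore consist of transfected, tag-selected cells. Whether the 3 samples of a group came from different cultures or animals is not stated, so p-values here reflect only how far these samples scatter, and that scatter may be technical.

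Each array had been scaled to a trimmed mean signal of 500, and median signals ran from 102 to 120. The probe set for endogenous Neurod6 had a log2 difference, Math2 minus control, of 0.021. Whether the vector carries the stretch that this probe set reads is not given in the sources used here, so the probe set does not check the transfection. Plppr4, which encodes the Prg1 named in the title of the study, read 251, 152 and 269 in the control arrays and 770, 844 and 1177 in the Math2 arrays on its brighter probe set. Hybridization spike-ins, which are foreign transcripts added in fixed amount, had a geometric mean signal of 2312 ± 366 (SD, n = 3) in control arrays and 4897 ± 1626 (SD, n = 3) in Math2 arrays. Because amplification starts at the 3′ end of transcripts, the ratio of 3′ to 5′ signal reports on RNA length; for Gapdh it was 13.8, 3.74 and 5.04 in the control arrays and 8.48, 6.0 and 8.14 in the Math2 arrays.

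Most respiratory chain and ATP synthase genes had a somewhat higher mean signal in Math2 than in control arrays, but no member passed the test. Of the 102 probe sets, 93 passed the filter on mean signal, and they represent 85 of the 91 genes. Taking the brightest probe set of each gene, 69 of these 85 genes were higher in Math2 and 16 were lower, so 81.2% lay above 0 where 45.7% of all 18625 tested probe sets did. The median log2 difference was 0.20 over the 85 genes and -0.031 over all tested probe sets. Without the filter, 74 of all 91 genes were higher and the median was again 0.20. Throughout, a log2 difference is the Math2 mean minus the control mean of log2(signal + 7.42), a scale that understates differences of dim probe sets. In RNA from a mixed culture, fewer cells of a type and less RNA per cell cannot be told apart.

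In limma, with p-values adjusted by Benjamini-Hochberg across the 18625 probe sets, 0 of 93 member probe sets had an adjusted p under 0.05, as did 0.0% of all probe sets tested; the smallest adjusted p of a member was 0.9997. At an unadjusted p under 0.05, limma counted 7 members higher (7.53%) and 0 lower, where 1.75% of all probe sets were higher and 1.44% lower. With the replicate number as a block, limma again called 0 members at an adjusted p under 0.05, where 0.0161% of all probe sets were called, and the smallest adjusted p of a member was 0.2305. In that blocked fit 17 members (18.3%) were higher and 0 lower at an unadjusted p under 0.05, beside 3.78% and 3.92% of all probe sets. The block takes same-numbered arrays as pairs, which no label states and which was inferred from these same data, so its p-values depend on that choice. In 9 member probe sets (9.68%) all 3 Math2 signals exceeded all 3 control signals, beside 3.7% of all probe sets, and in 1 member the order was the opposite, beside 4.3%. The 9 belong to Ndufa1, Ndufa8, Ndufb9, Ndufv3, Atp5f1c, Atp5mc3, Atp5mk, Sdhaf3 and Atp5if1, and the 1 belongs to Ndufaf3. For any single probe set, 3 arrays against 3 cannot give an exact permutation p below 0.1.

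By complex, most genes of complexes I, III, IV and V were higher in Math2 and most of complex II lower, with 0 called in any of them. In complex I, 28 of 34 genes were higher, with a median log2 difference of 0.21. In complex III 7 of 8 were higher, with a median of 0.29. Complex IV had 11 of 12 tested genes higher (median 0.24) and complex V 14 of 15 (median 0.20). The 12 of complex IV include a pseudogene, Cox6c-ps1, and a testis form, Cox6b2, both dim and both among the 11 higher. Complex II was placed the other way, with 1 of 4 genes higher and a median of -0.13, a set too small to set against the others. The 10 assembly factors were split, 6 higher and 4 lower, with a median of 0.018. After quantile normalization the medians of complexes I to V were 0.17, -0.17, 0.17, 0.096 and 0.094, and 11 of 15 complex V genes were higher. Without Math2 3 the medians of complexes I, III and V were 0.41, 0.45 and 0.34, and without Math2 1 those of complexes I and III were 0.13 and 0.17. The complex II median was -0.28 without control 1, -0.23 without Math2 2, and -0.051, -0.079 and -0.048 without control 2, control 3 and Math2 1. These are counts over genes measured on the same 6 arrays, and differences between complexes were not tested.

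**Figure D1:**
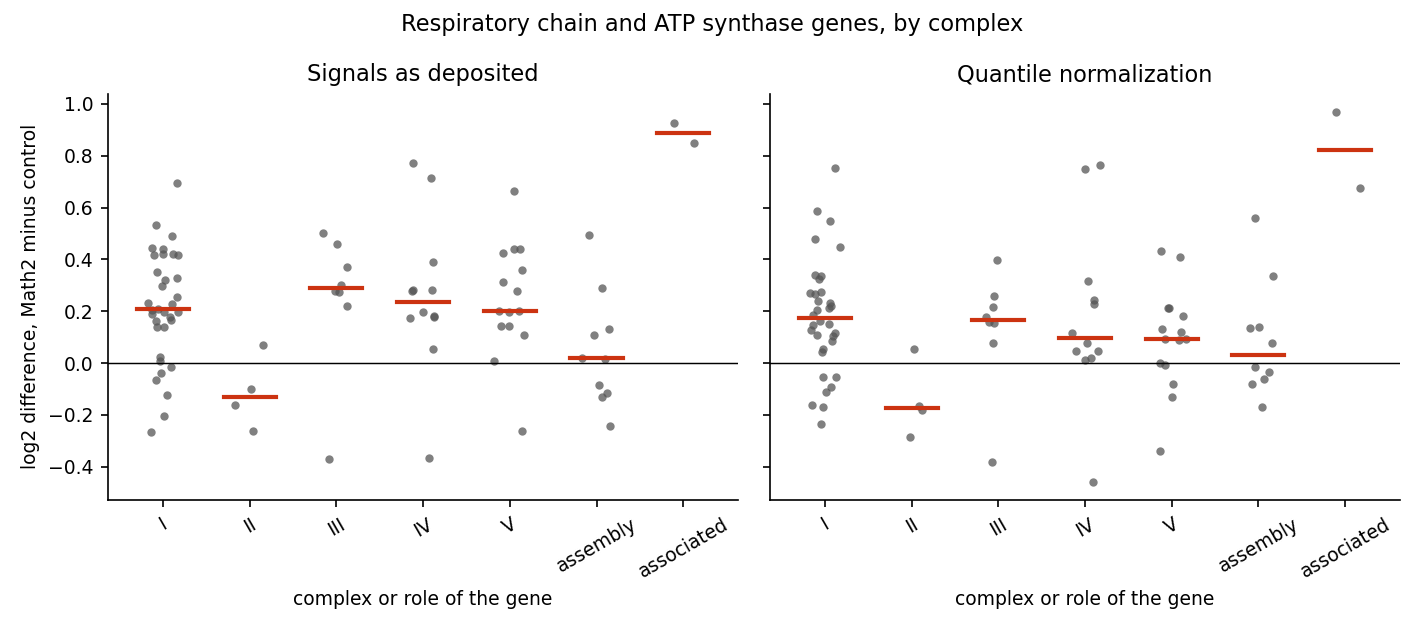
Vertical axes give the log2 difference (Math2 minus control) of each tested gene at its brightest probe set, 1 point per gene, by complex or role, as deposited on the left and after quantile normalization on the right; red bars are medians. Genes of complexes I, III, IV and V lie mostly above 0 and those of complex II mostly below, and the medians of complexes IV and V move from 0.24 to 0.096 and from 0.20 to 0.094.

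The difference was not carried equally by the arrays. The geometric mean signal of the 85 genes was 2384, 2718 and 2478 in control 1, 2 and 3, and 3262, 3172 and 2412 in Math2 1, 2 and 3. Math2 1 and Math2 2 lay above every control array, whereas Math2 3 lay among them, below control 2 and control 3. Math2 1 was the highest of the 6 arrays for 41 of the 85 genes, Math2 2 for 19, control 2 for 13, control 3 for 7, control 1 for 4 and Math2 3 for 1. Over all tested probe sets these shares were far more even, with Math2 1 the highest in 17.7% and Math2 3 in 16.5%.

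Same-numbered arrays deviated together from their group means over all probe sets, so the replicate numbers were treated as pairs. In pair 1 the median log2 difference of the 85 genes was 0.50, with 73 genes higher in Math2. Pair 2 had a median of 0.21 and 62 genes higher. In pair 3 the median was -0.054 and 41 genes were higher (48.2%). Of all tested probe sets 45.5% were higher in that pair, also with a median of -0.054. After quantile normalization 33 genes (38.8%) were higher in pair 3, with a median of -0.096, below the 50.9% and 0.011 of all probe sets. Pairs 1 and 2 then had medians of 0.32 and 0.17, with 67 and 62 genes higher. Across the 3 pairs as deposited, 34 of 85 genes were higher in every pair, beside 13.1% of all probe sets. Lower in every pair were 7 (8.24%), beside 15.2%. After quantile normalization 23 genes (27.1%) were higher in every pair, beside 13.5%, and 8 (9.41%) were lower, beside 13.7%. As deposited, leaving out Math2 3 took the count of higher genes from 69 to 72 and the median from 0.20 to 0.34. Leaving out Math2 1 gave 64 genes and 0.14, and leaving out Math2 2 gave 62 genes and 0.16.

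**Figure D2:**
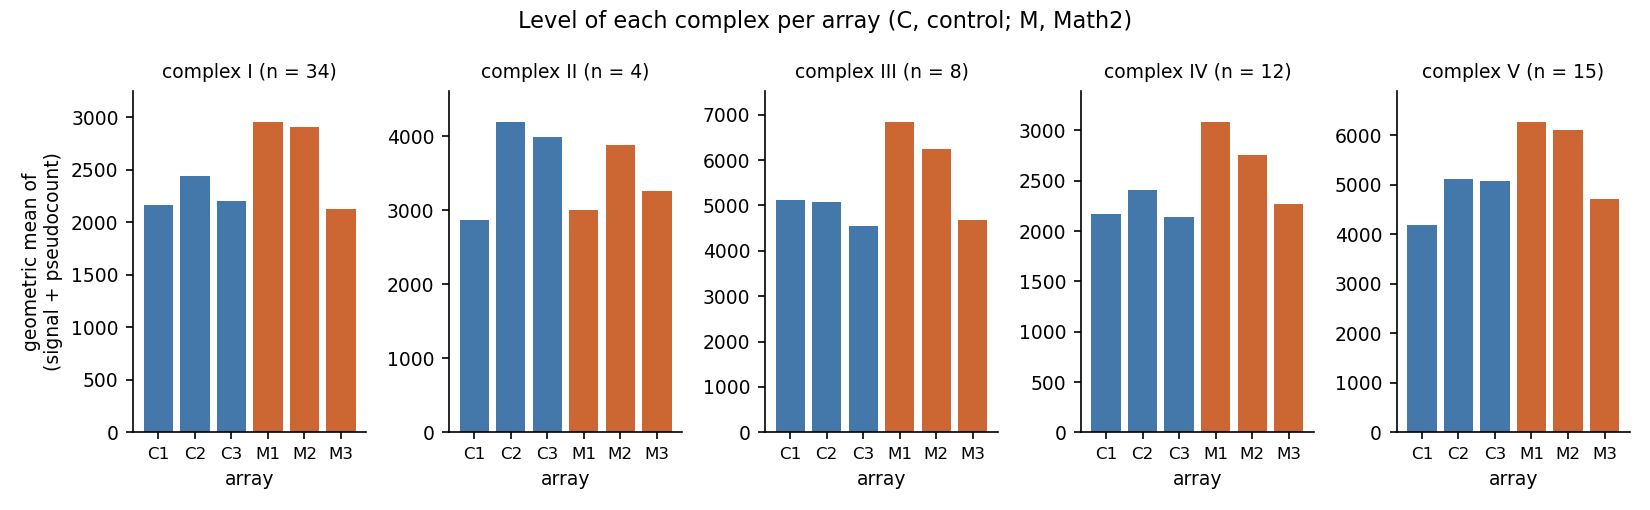
Bars give the geometric mean of signal plus pseudocount (linear, arbitrary units, axis from 0) over the tested genes of each complex in the 3 control arrays (C1 to C3, blue) and the 3 Math2 arrays (M1 to M3, orange). For complexes I, III, IV and V, M1 and M2 stand above all controls while M3 lies within or below the control range, and for complex II no Math2 bar exceeds C2.

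The brightest probe sets as a whole were higher in the Math2 arrays, and most of these genes are among them. The tested probe sets were cut into 10 equal bins by mean signal, and 52 of the 85 member genes fell in the brightest bin. In that bin 68.1% of all probe sets were higher in Math2, with a median log2 difference of 0.10, while the 52 member genes were higher in 82.7%, with a median of 0.21. In bins 6, 7, 8 and 9, 3 of 4, 4 of 4, 4 of 7 and 12 of 14 member genes were higher, with medians of 0.28, 0.59, 0.23 and 0.19. Of all probe sets in those bins 39.3%, 37.8%, 39.1% and 43.2% were higher. Over the whole range the difference did not grow steadily with signal. With bin 10 the brightest, the median of all probe sets was 0.017 in bin 1 and below 0 in bins 2 to 9, lowest in bin 7 at -0.082. It was larger at the very top. Among the brightest 1% of tested probe sets (187, of which 4 are member probe sets), 186 were higher, with a median of 0.43. Quantile normalization, which gives every array the same distribution of signals, brought that median to -0.0046. It brought the median of all probe sets in the brightest bin to -0.011 and that of the 52 member genes to 0.10, with 73.1% of them higher. Over all 85 genes it left 64 higher (75.3%, beside 47.9% of all probe sets) and a median of 0.13, beside -0.015. After quantile normalization 5 member probe sets kept all Math2 signals above all control signals (5.38%, beside 3.06%), and 0 had the opposite order (beside 3.89%). The 5 are those of Ndufa8, Ndufb9, Ndufv3, Sdhaf3 and Atp5if1. At an unadjusted p under 0.05 limma then counted 3 members higher (beside 1.28%) and 0 lower (beside 1.31%), and it called 0 at an adjusted p under 0.05 (beside 0.0%). With quantile normalization and the replicate block together, limma called 0 members (beside 0.0268%) and counted 11 higher (beside 3.44%) and 1 lower (beside 3.57%) at an unadjusted p under 0.05. The part of overall signal, of the spike-ins or of RNA length in the remaining difference was not tested.

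**Figure D3:**
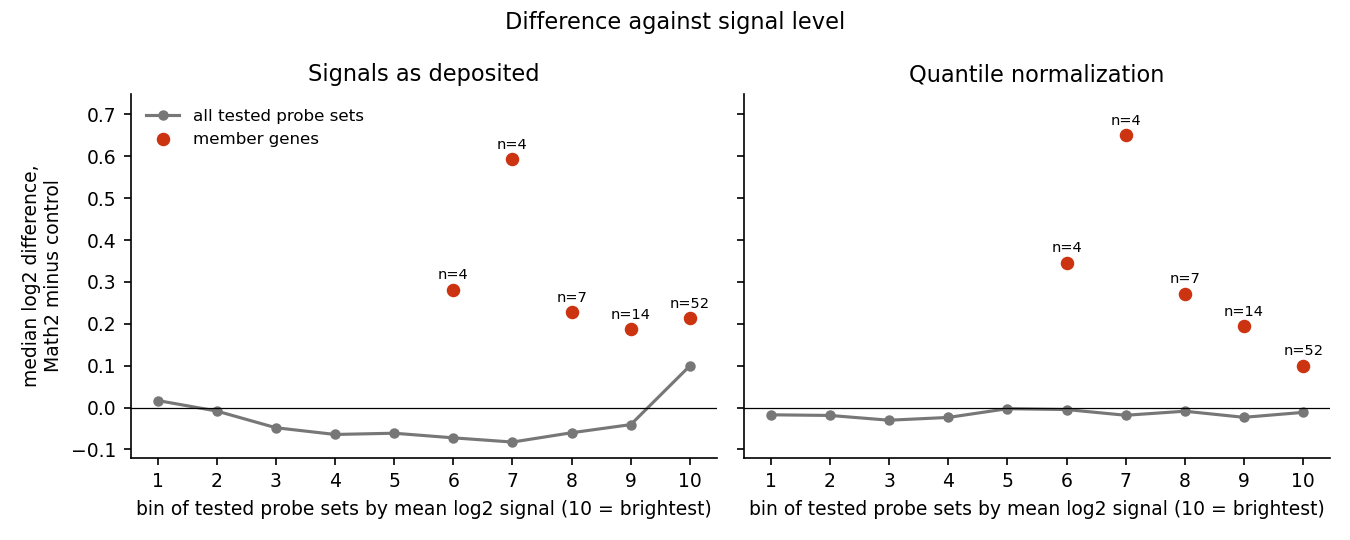
Vertical axes give the median log2 difference (Math2 minus control) in each of 10 equal bins of the tested probe sets by mean log2 signal, for all probe sets (grey line) and for member genes where the bin holds at least 4 (red points, n beside each), as deposited on the left and after quantile normalization on the right. In the brightest bin the median of all probe sets is 0.10 as deposited and -0.011 after quantile normalization, and that of the 52 member genes is 0.21 and 0.10.

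The member with the largest log2 difference was the gene for the ATP synthase inhibitor. Atp5if1 encodes the inhibitory factor that binds the catalytic head of the ATP synthase and blocks it when it would run backwards and consume ATP. Its main probe set read 1722, 1010 and 961 in the control arrays and 2445, 2349 and 2011 in the Math2 arrays. All 3 Math2 signals were above all 3 controls, also after quantile normalization. The means were 1231 ± 426 and 2268 ± 228 (SD, n = 3 each), a log2 difference of 0.93 (SE 0.27) or 1.90-fold. The unadjusted limma p was 0.0061, the limma adjusted p was 0.9997 without and 0.2305 with the replicate block, and the exact two-sided permutation p was 0.1, the smallest that 3 against 3 arrays can give. It was the only member at least 1.5-fold different without overlap, beside 1.51% of all probe sets higher by that measure, and 0 members were lower by it, beside 1.64%. Quantile normalization gave a log2 difference of 0.97, and leaving out 1 array at a time gave 0.77 to 1.19. A dimmer probe set of the gene, at 167, 110 and 119 against 247, 165 and 177, had a log2 difference of 0.55 with overlapping groups. A still dimmer probe set did not pass the filter.

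Cox7a2l, which was singled out after its values were seen, encodes a factor that helps join complexes III and IV into supercomplexes and is named for its likeness to a complex IV subunit. Its signals were 3556, 7892 and 5255 in the control arrays and 9689, 12300 and 7269 in the Math2 arrays. Math2 was higher in each of the 3 pairs, but Math2 3 lay below control 2, so the groups overlapped. The log2 difference was 0.85 (SE 0.30), 1.80-fold, with a limma adjusted p of 0.9997 without and 0.235 with the replicate block, and quantile normalization gave 0.67. The associated gene Ndufa4l2 did not pass the filter.

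Complex I, the largest of the complexes, combines a flavin and iron-sulfur arm that carries the electrons, membrane subunits encoded in the mitochondrion, and many accessory subunits. Ndufa1, a small membrane subunit needed for assembly, read 9130, 8974 and 10587 in control arrays and 15221, 12382 and 11020 in Math2 arrays. The groups did not overlap as deposited, with a log2 difference of 0.42 (SE 0.18), but they overlapped after quantile normalization, where the difference was 0.13. Ndufb9, another accessory subunit of the membrane arm, read 4911, 5030 and 4642 against 8057, 6647 and 5352, a log2 difference of 0.44 (SE 0.20). Its Math2 signals stayed above the controls after quantile normalization, at a difference of 0.34. Ndufa12, an accessory subunit, read 7453, 6100 and 6309 against 10670, 9235 and 7339, and only Math2 3, just under control 1, made the groups overlap (log2 difference 0.44, 0.27 after quantile normalization). Ndufb5, 1 of the 2 brightest complex I genes with Ndufa1, owed much of its log2 difference of 0.42 to Math2 1, whose 15258 stood against 8589 and 8731 in the other Math2 arrays. Without Math2 1 that difference was the lowest of its leave-one-out values, 0.15.

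Ndufv3, the small accessory subunit beside the NADH-binding site, had signals of 647, 632 and 820 in the control arrays and 999, 1110 and 845 in the Math2 arrays. All 3 Math2 arrays were higher, Math2 3 only just, and the log2 difference was 0.49 (SE 0.25) as deposited and 0.55 after quantile normalization. Its dimmer probe set had a difference of 0.40 with overlap. Ndufa8, a twin cysteine subunit facing the intermembrane space, read 1886, 1861 and 2029 against 2373, 2057 and 2375, a difference of 0.23 as deposited and 0.24 after quantile normalization, without overlap in either. Math2 3 was as high as Math2 1 for this gene. The subunits Ndufa11 (0.70) and Ndufs4 (0.53), the second a gene whose loss causes Leigh syndrome, had larger log2 differences but overlapping groups, since Math2 3 read 552 and 1020 against highest control signals of 662 and 1208.

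Of the 6 lower genes of complex I, 3 belong to its electron-carrying arm. Ndufv1, which carries the flavin that accepts electrons from NADH, read 1211, 2419 and 2393 in control and 1137, 2285 and 1546 in Math2 arrays, a log2 difference of -0.27 (SE 0.34). Math2 was lower in each pair, but control 1 was nearly as low as Math2 1, so the groups overlapped. Ndufs3, a core subunit of that arm, had a difference of -0.20 and Ndufv2, a partner of Ndufv1, of -0.12, both with overlap. In a division added after these values were seen, and so described without a test, 3 of 6 core subunits of that arm (Ndufv1, Ndufv2, Ndufs1, Ndufs3, Ndufs7 and Ndufs8) were higher, with a median of 0.0074, and 25 of the 28 remaining subunits were higher, with a median of 0.24. After quantile normalization these became 3 of 6 (0.011) and 24 of 28 (0.19). The 2 probe sets of Ndufa7, an accessory subunit, disagreed: the brighter had a difference of 0.32 and the dimmer of -0.11.

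Complex II, succinate dehydrogenase, is also an enzyme of the tricarboxylic acid cycle and the only complex without a mitochondrially encoded subunit. Sdha, its flavoprotein, read 2927, 3766 and 3281 in control and 2435, 3259 and 2634 in Math2 arrays. Math2 was lower in each of the 3 pairs, although the groups overlapped, and the log2 difference was -0.26 (SE 0.21), or -0.28 after quantile normalization. Sdhc, a membrane anchor, was likewise lower in each pair, with a difference of -0.16. Sdhd, the other anchor, had -0.10 on the brighter of its 2 probe sets and -0.11 on the other. Sdhb, the iron-sulfur subunit, read 2131, 4222 and 4269 against 3210, 4044 and 3419, a difference of 0.069 that turned to -0.26 without control 1 and to -0.026 without Math2 2. All 4 genes had overlapping groups.

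In complex III the largest difference belonged to Uqcr10, a small accessory subunit, at 5600, 4296 and 2850 against 8701, 5676 and 3942. Math2 was higher in each pair while the groups overlapped (log2 difference 0.50, SE 0.32, 0.40 after quantile normalization). The 2 brightest genes of the complex, Uqcrh, the hinge protein between cytochrome c and its electron donor, and Uqcrq, a ubiquinone-binding subunit, had log2 differences of 0.37 and 0.46 that became 0.079 and 0.22 after quantile normalization. For Uqcrq the Math2 signals were 15919, 9384 and 6176, so Math2 1 stood far from Math2 3, and the leave-one-out values ran from 0.11 to 0.79. Cyc1, which encodes cytochrome c1, had a difference of 0.28. Uqcrfs1, the Rieske iron-sulfur protein and the only lower gene of the complex, read 2897, 3631 and 3320 against 1915, 3428 and 2449, lower in each pair, with a log2 difference of -0.37 (SE 0.25) and -0.38 after quantile normalization.

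Among complex IV genes, Cox7b, a small subunit of the membrane part, had the largest difference. It read 2077, 3786 and 1843 in control and 4414, 4913 and 3339 in Math2 arrays, so that only control 2 reached into the Math2 range. The log2 difference was 0.77 (SE 0.29), 1.71-fold, with an unadjusted limma p of 0.023, a limma adjusted p of 0.283 with the replicate block, and a difference of 0.75 after quantile normalization. Cox5a, a matrix-side subunit, had a difference of 0.72 on its single-symbol probe set, with signals of 868, 417 and 377 against 1508, 600 and 678, where control 1 exceeded Math2 2 and Math2 3. A brighter Cox5a probe set, outside the rule because it names a second gene, read 8095, 6921 and 6352 against 11661, 9247 and 7607. Its difference was smaller, 0.40 as deposited and 0.20 after quantile normalization, with overlap. Cox6a1, another small subunit, read 5159, 7769 and 6737 against 9070, 9950 and 6743, with Math2 3 inside the control range and a difference of 0.39 that became 0.23. Cox6c and Cox8a, the 2 brightest genes of the complex, had 0.28 and 0.18, which became 0.048 and 0.013. Cox6c-ps1, a pseudogene of Cox6c that the naming rule takes in, had 0.053, and transcripts of near-identical copies may not be told apart by such probes. Cox6b1, which helps hold the dimer together, was the single lower gene, at 4183, 6902 and 5542 against 4853, 3916 and 3923, with a difference of -0.37 (SE 0.23) and -0.46 after quantile normalization.

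Several complex IV subunits have a second gene used mainly in muscle, lung or testis. In these cortical cells the probe sets of Cox4i2, Cox6a2, Cox7a1, Cox7b2 and Cox8b all fell below the filter, as did Ndufa4l2, a paralog of the complex IV subunit Ndufa4, and these 6 are the untested member genes. Their signals ran as low as 2.63 for Cox8b in Math2 3 and no higher than 119 for Cox7b2 in Math2 1. Cox6b2, a testis form, passed the filter at 252, 79.5 and 129 against 231, 160 and 131, with a difference of 0.28 and wide overlap, which turned to -0.088 without control 2. The forms used in most tissues had log2 differences of 0.20 for Cox4i1, 0.39 for Cox6a1, -0.37 for Cox6b1, 0.77 for Cox7b, 0.18 for Cox8a and 0.18 for Ndufa4.

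In the ATP synthase, the genes with the smallest unadjusted p encode the central stalk and the membrane sector. Atp5f1e, the epsilon subunit of the stalk, read 8538, 6717 and 6002 in control and 16699, 10108 and 8098 in Math2 arrays, with Math2 3 just below control 1. The log2 difference was 0.66 (SE 0.27), 1.58-fold, with a limma adjusted p of 0.283 with the replicate block, and it was 0.41 after quantile normalization. Atp5f1c, the gamma subunit that turns inside the catalytic head, read 12489, 8399 and 10606 against 16371, 12640 and 12970 without overlap, a difference of 0.42 that became 0.12 with overlap. Atp5mk, a small membrane subunit that helps pair the enzymes into dimers, read 9133, 13038 and 13360 against 17599, 15054 and 14985, a difference of 0.44 (SE 0.19) that became 0.094 with overlap. Atp5mc3, 1 of the 3 genes for the proton-carrying ring subunit, read 11267, 12154 and 12054 against 16222, 14757 and 12318, a difference of 0.28 that turned to -0.082 after quantile normalization. Thus none of the 3 complex V genes without overlap kept that order once the arrays were given 1 distribution.

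Atp5f1a, the alpha subunit of the catalytic head, was the only lower gene of the complex, at 3993, 5494 and 5762 against 3664, 5461 and 3669, lower in each pair, with a difference of -0.26 (SE 0.24) and -0.34 after quantile normalization. Atp5f1b, the catalytic beta subunit, had 0.14, which turned to -0.13 after quantile normalization. Among the 5 head and stalk genes together, 4 were higher as deposited and 2 after quantile normalization, and among the 10 other subunits 10 and 9 were, a division that was also made after the values were seen. The 2 probe sets of Atp5po, a subunit of the outer stalk, went opposite ways, 0.36 for the brighter and -0.70 for the dimmer, which read 109, 120 and 79.3 against 92.5, 29.1 and 73.8.

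**Figure D4:**
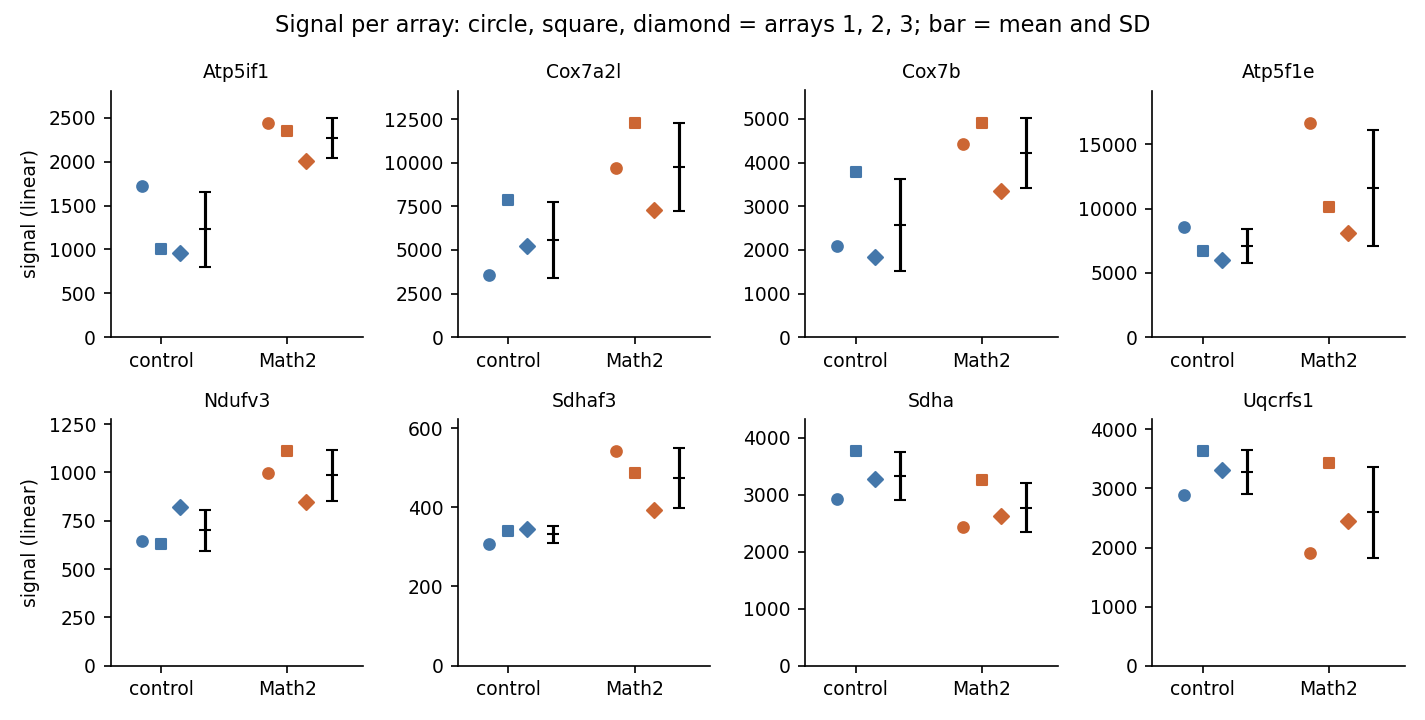
Points give the deposited signal (linear, arbitrary units, axes from 0 and scaled per gene) of 8 members in arrays 1, 2 and 3 of each group (circle, square and diamond), with the mean and SD beside them. Atp5if1 shows a gap between groups (961 to 1722 against 2011 to 2445), and for Sdha and Uqcrfs1 each Math2 array lies below the control array of the same number while the groups overlap.

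Assembly factors build the complexes without staying in them. Sdhaf3, which helps insert the iron-sulfur subunit into complex II, read 308, 340 and 346 in control and 542, 487 and 393 in Math2 arrays. The groups did not overlap, with a log2 difference of 0.50 (SE 0.27) and 0.56 after quantile normalization, and the limma adjusted p with the block was 0.675. Ndufaf3, a complex I assembly factor, was the member whose Math2 signals all lay below the controls, but by little, at 1057, 1061 and 1080 against 951, 1041 and 1024, a difference of -0.085. The 9 probe sets of the same families that carry several symbols stood outside the rule, and they are described after their values were seen. All 9 had a log2 difference above 0, from 0.12 to 0.44. The brighter probe set for Cycs, cytochrome c, whose annotation also names a pseudogene and a copy, read 12048, 11767 and 13102 against 21862, 14184 and 15054, a difference of 0.44 that became 0.065 after quantile normalization. That for Uqcrb, a complex III subunit, had 0.32, which turned to -0.081.

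Nuclear respiratory chain genes are known for promoters that bind NRF1, GABP (an ETS family factor) and YY1. Of the 91 genes, 82 had a promoter in the RefSeq table of assembly GRCr8, from 250 bases before to 50 bases after the start, and motifs were searched on both strands. The NRF1 motif, a palindromic run of CG-rich letters with 1 free position, occurred in 17 of the 82 (20.7%), where 4.71% of all 27457 promoters held it. The ETS motif CCGGAAG occurred in 25 (30.5%, beside 9.22%) and the YY1 motif AAGATGGCG in 11 (13.4%, beside 1.93%). The E-box CAGATG, a form that factors of the NeuroD family bind, occurred in 11 (13.4%, beside 16.3%). At least 1 of the first 3 motifs was found in 45 promoters (54.9%, beside 14.3%), 8 held more than 1 of them, and matches of different motifs overlapped in 0. Among tested genes with a promoter, 61 were higher and 16 lower. The NRF1 motif was present in 16 of the higher and 1 of the lower genes, ETS in 21 and 4, YY1 in 8 and 3, and the E-box in 7 and 4. A match is a run of letters and not a measured binding site.

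The last 150 bases before the start are shown for 4 genes whose Math2 signals did not overlap the controls and for Sdha, the lower gene with NRF1 motifs; capitals mark motif matches and each sequence runs 5′ to 3′ on the strand of the gene. The match in Ndufv3 (chr20:9613636-9613785, plus strand) is to NRF1, 39 to 30 bases before the start. Sdhaf3 (chr4:36066813-36066962, plus strand) holds ETS at 114 to 108 and NRF1 at 18 to 9 bases before the start. Atp5mk (chr1:255922048-255922197, minus strand) holds ETS, read on the other strand, at 58 to 52. Sdha (chr1:30764403-30764552, plus strand) holds NRF1 at 89 to 80 and at 46 to 37, and a further match crosses the start. The stretch of Atp5if1 (chr5:150026678-150026827, minus strand), the member with the largest difference, holds none of the 4 motifs.
Ndufv3: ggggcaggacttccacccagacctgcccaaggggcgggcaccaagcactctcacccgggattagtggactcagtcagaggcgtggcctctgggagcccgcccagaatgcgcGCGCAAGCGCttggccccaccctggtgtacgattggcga
Sdhaf3: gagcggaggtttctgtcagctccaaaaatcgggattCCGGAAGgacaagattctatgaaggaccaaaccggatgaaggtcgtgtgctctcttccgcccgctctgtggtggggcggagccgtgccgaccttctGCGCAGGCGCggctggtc
Atp5mk: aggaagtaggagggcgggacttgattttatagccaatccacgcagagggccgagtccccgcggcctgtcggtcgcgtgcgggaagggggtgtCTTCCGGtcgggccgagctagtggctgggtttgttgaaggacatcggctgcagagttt
Sdha: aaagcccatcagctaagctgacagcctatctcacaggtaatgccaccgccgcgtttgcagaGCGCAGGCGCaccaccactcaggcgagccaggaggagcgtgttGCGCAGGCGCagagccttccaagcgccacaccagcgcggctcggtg
Atp5if1: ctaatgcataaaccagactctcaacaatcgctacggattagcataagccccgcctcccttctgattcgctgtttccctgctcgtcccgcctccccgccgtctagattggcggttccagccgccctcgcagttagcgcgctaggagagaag

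Genes with roles around the respiratory chain were not all placed alike. Over lists of genes with related roles, limma called 0 genes at an adjusted p under 0.05 in any list, with and without the replicate block. At an unadjusted p under 0.05 it counted 1 higher gene each among assembly factors, ribosomal and import genes and 0 lower in any list, beside 1.75% and 1.44% of all probe sets. With the block it counted 5 higher genes of the mitochondrial ribosome and 1 each of the assembly and import lists, and 1 lower gene each among biogenesis regulators (Nrf1), exchange and uncoupling proteins (Slc25a14) and hypoxia targets (Hmox1), beside 3.78% and 3.92%. The mitochondrial ribosome, which translates the mitochondrially encoded subunits, had 57 of 73 genes higher (median 0.18, 0.16 after quantile normalization). Its gene Mrpl41 read 4799, 4157 and 4915 against 8321, 5425 and 5960, without overlap, a log2 difference of 0.48. The protein import machinery had 19 of 23 genes higher (median 0.11). There Tomm20, a receptor on the outer membrane, read 10724, 8744 and 8429 against 19063, 11680 and 12635, a difference of 0.61 that became 0.31 after quantile normalization. Other assembly factors had 26 of 39 genes higher (median 0.067), and among them Uqcc2, needed for complex III, had 0.57 and Ecsit, a complex I factor, -0.48 without overlap. Without overlap, 2 genes of the assembly list were higher and 2 lower, beside 3.7% and 4.3% of all probe sets. The ribosomal list had 4 higher and 0 lower by that measure.

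Fewer genes were higher in the lists of fuel enzymes, and some other lists lay near the 45.7% of all probe sets that were higher. For the tricarboxylic acid cycle and pyruvate dehydrogenase 7 of 21 genes were higher (median -0.077), with Suclg2 and Dlst, which use and make succinyl-CoA, at -0.40 and -0.32 without overlap. Mpc1 of the same list was higher without overlap, at 0.25. The list thus had 1 higher and 2 lower genes without overlap, beside 3.7% and 4.3% of all probe sets. Glycolysis had 6 of 19 higher (median -0.17), and after quantile normalization 2 of 19 (median -0.16). There the enzymes Pgam1 and Pgk1 turned from 0.27 and 0.26 to -0.010 and -0.087, Eno1, Aldoa and Slc16a3 also turned lower and Gpi turned higher. Other electron donors had 6 of 15 higher (median -0.0072), and 9 of 15 after quantile normalization (median 0.052). Exchange and uncoupling proteins had 7 of 16 (median -0.038), and 4 of 16 after quantile normalization (median -0.13). Hypoxia targets had 8 of 16 (median -0.054) and 7 of 16 (median -0.039). In the exchange list Slc25a14, a brain uncoupling protein, read 736, 557 and 668 against 480, 238 and 508, without overlap, a difference of -0.73. No other gene of that list was without overlap in either direction. Of the regulators of mitochondrial biogenesis 6 of 17 were higher (median -0.070), and 8 of 17 after quantile normalization (median -0.017). Ppargc1a, the coactivator that drives biogenesis, had a difference of -0.62 (407, 219 and 443 against 170, 203 and 303), Nrf1 of -0.56 and Yy1 of 0.34, all with overlap. The direction of several of these medians rested on single arrays. The glycolysis median turned to 0.022 without control 3, the tricarboxylic acid cycle median to 0.0030 and the biogenesis median to 0.037 without Math2 3. The exchange median turned above 0 without control 2 or 3 or without Math2 1 or 3 (at most 0.059), and that of other donors without Math2 1 or 3 (at most 0.073). The medians of the mitochondrial ribosome (0.10 to 0.27), the import machinery (0.026 to 0.23) and the other assembly factors (0.032 to 0.16) stayed above 0 in each such fit. No list gene among the 13 mitochondrially encoded subunits had a single-symbol probe set on the array.

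**Figure D5:**
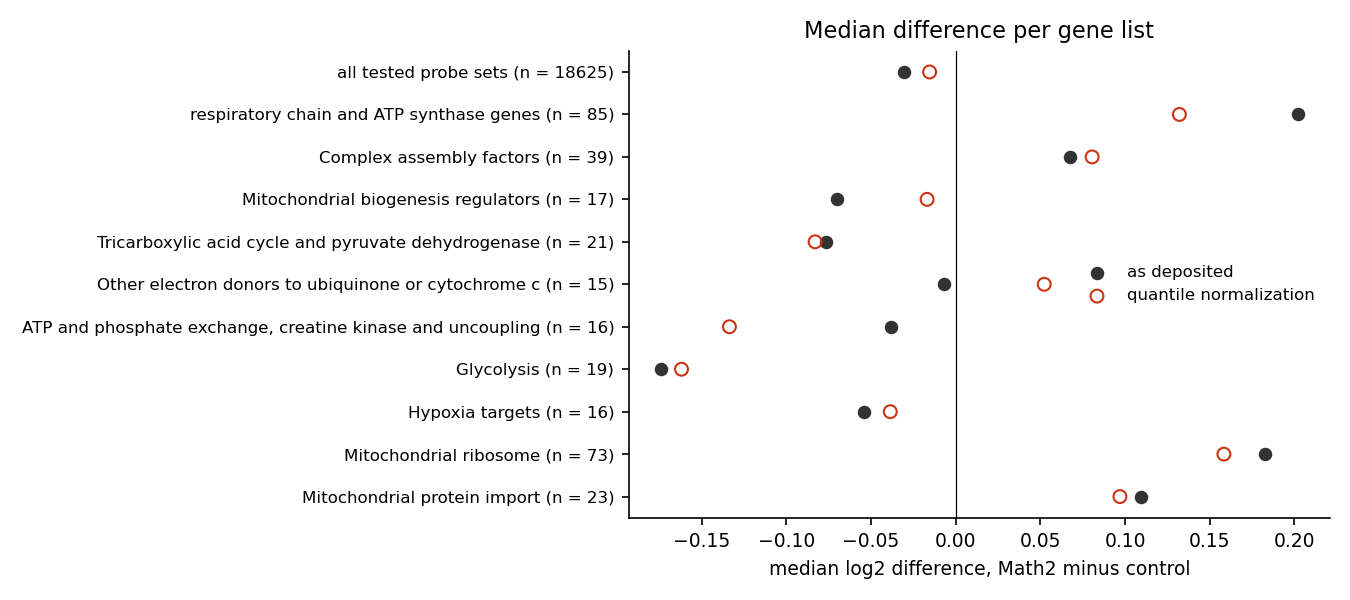
The horizontal axis gives the median log2 difference (Math2 minus control) of all tested probe sets, of the member genes and of each related gene list, as deposited (filled) and after quantile normalization (open), with the number tested beside each name. Member genes (0.20 and 0.13) and the mitochondrial ribosome (0.18 and 0.16) lie to the right of 0, and glycolysis (-0.17 and -0.16) lies to the left, though its median is 0.022 without control 3.

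Cell type markers were summed per array to see whether cell composition moved with these genes. For neurons, 10 of 12 markers were tested, and the summed signal ran from 17278 to 29236 in control and from 16978 to 36638 in Math2 arrays. It was highest in Math2 3, where the member genes were lowest of the Math2 group, and among the controls it was highest in control 3. Of the neuronal markers 7 were higher and 3 lower in Math2, with a median log2 difference of 0.065, so this sum does not stand for each marker either. For astrocytes and radial glia, 8 of 10 markers were tested, and the sum was 52464, 51354 and 44424 in control and 67656, 60223 and 41182 in Math2 arrays. It was thus above every control in Math2 1 and Math2 2 and below every control in Math2 3, and its part in the result was not tested. The single markers did not share a direction. Of the 8 tested, 4 rose and 4 fell in the Math2 arrays, and their median was 0.028 on the log2 scale. The sum therefore does not stand for each marker. All 9 microglial markers were below the filter, with sums of 303 to 366 and 208 to 305. Oligodendrocyte lineage sums (4 of 9 tested) ran from 6351 to 11083 in control and 6976 to 10146 in Math2 arrays, and fibroblast sums (6 of 8 tested) from 6147 to 9687 and 5794 to 7828. Endothelial sums (2 of 6 tested) were 394 to 823 and 308 to 696, and muscle sums (3 of 8 tested) 300 to 562 and 360 to 493, so these 4 overlapped. Among defining markers, Syt1 and Nefl of neurons, Slc1a2 of astrocytes, and Olig2, Sox10, Mog and Mag of oligodendrocytes were below the filter.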

How the data were processed

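RNA of 6 samples was analysed, 3 control and 3 Math2, with 1 array each. The deposited values are linear signal intensities per probe set that the authors made with MAS5, per the submitters' processing notes, which name neither its version nor its settings here. Each array's trimmed mean signal is 500. Of 31099 probe sets 57 are array controls; 20826 had 1 platform symbol, 436 several and 9780 none. All 102 member probe sets matched RefSeq genes (GRCr8), and 0 symbols changed.

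The test was limma 3.58.1 in R 4.3.3 (lmFit, eBayes with trend, two-sided, Benjamini-Hochberg at 0.05) on log2(signal + 7.42), the pseudocount being the 10th percentile of all positive values. Probe sets below the 40th percentile of mean log2 value were left out, leaving 18625. The fit was tested on simulated data. There it called 26% of 100 probe sets raised 2-fold and 90% of 100 raised 4-fold, with 11 false calls. The simulated noise was independent between arrays and probe sets, without differences that real arrays or pairs share, so these rates do not carry over. In the real arrays the same fit called 0 probe sets, with a smallest adjusted p of 0.4923. Plppr4 went uncalled at a log2 difference of 2.03 (limma adjusted p 0.5623). Differences of 2-fold or less, and larger ones too, could thus go uncalled. A gene is represented by its brightest tested probe set, and levels of different probe sets are not compared. No overlap means that all 3 signals of a group exceed all 3 of the other.

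The labels do not say whether replicate numbers pair the arrays. Over all tested probe sets the deviations from group means of same-numbered arrays correlated at 0.326, 0.476 and 0.372, all over 0.1, so the numbers were taken as pairs. Of the unlike-numbered arrays, control 1 and Math2 3 correlated at 0.104, and the rest from -0.460 to -0.040. Deviations within a group of 3 are not independent, and the pairing is inferred from the same data that the blocked fit uses.

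Genes were named by rule: per complex the 2 brightest and up to 3 higher and 3 lower with the smallest unadjusted p; members at least 1.5-fold different without overlap; genes whose probe sets differ in sign by more than 0.3; tissue-restricted isoforms with their paralogs; and up to 3 genes per related list. Other members named were chosen after their values were seen. Members and lists were chosen with earlier results of these data known. Alternatives were quantile normalization, median centring, pseudocounts of 1 and 50, no filter or a 60th percentile filter, the replicate block, all probe sets of a gene, and leaving out each array.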

Additional observations from a re-analysis of the deposited data

How the results depend on the processing

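Over the 61 genes named by rule, 837 of 849 comparisons with an alternative kept the direction and the side of the threshold, and 12, in 7 genes, reversed. Genes named outside the rule are not in this count, among them Atp5f1b, Uqcrb, Eno1, Aldoa, Slc16a3 and Gpi, which changed direction with quantile normalization. Much of this agreement was fixed in advance, so the count does not measure robustness. The replicate block and the choice of filter leave a log2 difference unchanged here, and median centring shifts all probe sets by the same amount. With no gene called in the main fit, the side of the threshold also had little room to change. With quantile normalization, with and without the replicate block, Atp5mc3 turned to -0.082, Vdac3 to -0.073, Pgam1 to -0.010 and Pgk1 to -0.087; this alternative by construction removes differences in the overall signal distribution. Leaving out 1 array at a time, Sdhb ran from -0.26 to 0.24, Cox6b2 from -0.088 to 0.70 and Etfb from -0.0059 to 0.48, and the cause was not tested. Member probe sets higher at an unadjusted p under 0.05 numbered 7, against 3 with quantile normalization, 4 with median centring, 17 with the replicate block and 11 with block and quantile normalization, and 2 to 21 when 1 array was left out, the 21 without Math2 3. Lower ones numbered 0, against 1 with block and quantile normalization and 0 to 1 when 1 array was left out. Members without overlap and higher numbered 9, against 5 with quantile normalization and 9 to 41 when 1 array was left out, the 41 without Math2 3; lower ones numbered 1, against 0 with quantile normalization, 0 with median centring and 1 to 9 when 1 array was left out, the 9 without control 1. Fewer arrays make it easier for groups not to overlap. When 1 array was left out, the median log2 difference ran from 0.13 to 0.41 for complex I, -0.28 to -0.048 for complex II, 0.17 to 0.45 for complex III, 0.16 to 0.33 for complex IV and 0.15 to 0.34 for complex V, highest without Math2 3 for all but complex II. With quantile normalization the medians of complexes III, IV and V were 0.17, 0.096 and 0.094. The replicate block added no call among the members, whose count at an adjusted p under 0.05 in limma was 0 in every alternative run. With 3 arrays a group, precision is limited by their number.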
